A study of Homo sapiens with 9 samples.

Results

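The sorting nexins, the vacuolar protein sorting (VPS) proteins and the charged multivesicular body proteins (CHMP) move membrane cargo between endosomes, lysosomes and the Golgi apparatus. Genes were taken by symbol alone, as SNX followed by digits, VPS followed by digits with at most 1 further letter, or CHMP followed by a digit with at most 1 further letter. This gave 72 of the 17687 genes named on the array, of which 28 were SNX, 34 were VPS and 10 were CHMP genes, each with 1 probe set. SNX8, SNX25 and CHMP4A were not analysed here. Expression was measured on 9 Clariom S Human arrays in the adipose-derived mesenchymal stem cell line ASC52telo, which carries telomerase, at day 10 in differentiation media (DM) intended to give keratinocyte-like cells. All 3 groups received DM, a keratinocyte medium with added BMP-4, epidermal growth factor, ascorbic acid phosphate, hydrocortisone and all-trans retinoic acid. The DM group (3 arrays) had nothing further, the DMSO group (3 arrays) also had 0.1% DMSO as vehicle, and the CID group (3 arrays) also had 40 μM CID-1067700 (CID), a compound that competes with nucleotides for binding to the GTPase Rab7. All samples came from this 1 immortalized line, and they were described as biological replicates without a statement that each was its own culture. The p-values therefore rest on the spread among these samples, part or all of which may be technical. It was not stated either whether DMSO was also present in the CID wells.

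Cargo that reaches an early endosome is either retrieved or sent on for breakdown. Retrieval uses tubules coated by sorting nexins together with the retromer or retriever complexes, breakdown uses the ESCRT complexes, which bud cargo inwards into multivesicular bodies, and fusion of late endosomes with lysosomes uses the HOPS tethering complex. Rab7 stands where these routes meet, because it recruits both retromer and HOPS to the membranes of late endosomes. In bulk RNA, fewer cells of a type and less RNA per cell cannot be told apart.

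No SNX, VPS or CHMP gene passed the test in any comparison. A gene was called at an adjusted p under 0.05 in limma (Benjamini-Hochberg adjustment over all 21448 probe sets) where the groups also differed by 1.5-fold or more. For CID against DM, 0 of 72 were called against a background of 1.35% of all probe sets (289). For CID against DMSO, 0 of 72 were called against a background of 2.41% (517), and for CID against DM and DMSO averaged 0 of 72 against a background of 2.44% (523). For DMSO against DM, 0 of 72 were called against 0.00466% of all probe sets, which is 1 probe set. Without the fold threshold limma also gave 0 of 72, where the background was 1.4% for CID against DM, 2.76% for CID against DMSO, 3.38% for CID against both averaged and 0.00466% for DMSO against DM. At an unadjusted p under 0.05, limma gave 7 of 72 genes (9.72%) for CID against DM, where the background was 12.6%. It gave 7 of 72 (9.72%) for CID against DMSO with a background of 15.2%, and 1 of 72 (1.39%) for DMSO against DM with a background of 6.98%. With limma these shares were below those of all probe sets in all 3 comparisons. An independent samples t-test, which the methods name in general and not for the arrays, called 0 of 72 after adjustment, but it called few probe sets anywhere, with backgrounds of 0.00932%, 0.0979% and 0%. At an unadjusted p under 0.05 it gave 8 of 72 (11.1%) beside a background of 11.1% for CID against DM, 12 of 72 (16.7%) beside 13.9% for CID against DMSO, and 3 of 72 (4.17%) beside 5.95% for DMSO against DM.

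Narrow intervals were more frequent among these genes than on the array as a whole. The 95% confidence interval of the log2 fold change lay within 1.5-fold in both directions for 60 of the 72 genes (83.3%) in CID against DM, where 65.5% of all probe sets had such an interval, and for 60 of 72 (83.3%) in CID against DMSO, where 63.1% did. All 72 intervals lay within 2-fold in each of these comparisons, but the share of all probe sets within 2-fold was not counted. The 12 genes whose interval for CID against DM reached 1.5-fold were SNX2, SNX9, SNX10, SNX24, VPS11, VPS13C, VPS13D, VPS16, VPS26C, VPS37B, VPS54 and CHMP4C. In CID against DMSO they were SNX10, SNX15, SNX24, SNX32, VPS16, VPS25, VPS37B, VPS37D, VPS41, VPS72, CHMP1A and CHMP4C. The spread was small, with a median within-group standard deviation (SD) of 0.135 on the log2 scale for the 72 genes and 0.189 for all named genes. It was lowest for SNX12, at 0.0595, and highest for CHMP4C, at 0.538. CHMP4C is 1 of 6 genes, with SNX10, SNX20, SNX22, SNX31 and VPS16, whose mean log2 value was below 5.40, the dim level. The dim level was set so that 33.3% of all probe sets fall below it. The other 66 of the 72 genes were above it. The 72 genes thus held a smaller share of dim genes than the array. The shares of narrow intervals were not compared among probe sets above the dim level alone.

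The median log2 fold change of the 72 genes was 0.10 for CID against DM, beside 0.0067 for all named genes, and 53 of 72 (73.6%) were above 0, beside 51.3% of all named genes. For CID against DMSO the median was 0.05 beside 0.0133, with 42 of 72 (58.3%) above 0 beside 52.3%. For DMSO against DM the median was 0.02 beside 0.0033, with 41 of 72 (56.9%) above 0 beside 50.5%. Counted without regard to sign, the median change was 0.143 for the 72 genes and 0.143 for all named genes in CID against DM, and 0.117 beside 0.153 in CID against DMSO. The highest and lowest log2 fold changes for CID against DM were 0.49 for SNX2 and -0.47 for SNX24, and for CID against DMSO they were 0.51 for SNX32 and -0.43 for VPS16. By family, the median for CID against DM was 0.08 for SNX, 0.13 for VPS and 0.09 for CHMP genes, and for CID against DMSO it was 0.01, 0.08 and -0.02. These comparisons share their control or treated arrays and are not independent of each other.

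**Figure D1:**
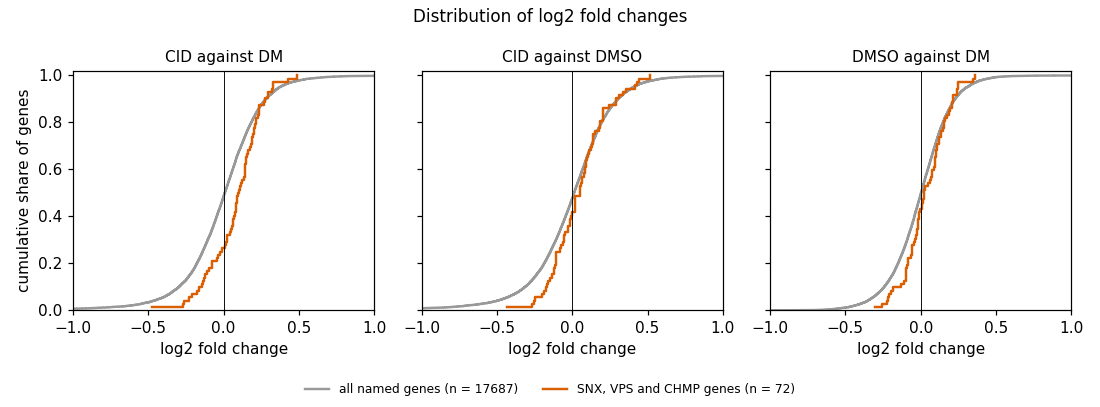
Cumulative share of genes (vertical axis) by log2 fold change (horizontal axis) for the 72 SNX, VPS and CHMP genes and for all 17687 named genes, in CID against DM, CID against DMSO and DMSO against DM. The curve of the 72 genes lies to the right of the other at 0 in CID against DM, where 73.6% of them were above 0 beside 51.3% of all named genes, and all of the 72 lie between -0.47 and 0.51.

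The arrays themselves were alike, with array medians of 7.06 to 7.14 and correlations within a group of 0.994 to 0.9954. The second DM array stood apart from the others on the second principal component. Without it, 0 of 72 genes were called for CID against DM and 48 of 72 were above 0. All 8 mesenchymal stromal markers checked, among them VIM, THY1 and NT5E, were above the dim level, and 0 of 8 keratinocyte markers were, KRT5, KRT14, KRT1, KRT10, FLG and IVL among them. The mean log2 value of the mesenchymal markers was 14.25 to 14.29 on the DM arrays, 14.33 to 14.44 on the DMSO arrays and 13.87 to 13.96 on the CID arrays, and 1 of 8 (COL1A1) was called lower for CID against DM and 4 of 8 (COL1A1, COL1A2, LUM and PDGFRB) for CID against DMSO. THY1 was on the other side, with log2 fold changes of 0.39 and 0.45 that did not pass the test, and VIM had -0.06 and -0.14. That of the keratinocyte markers was between 3.92 and 4.21 on all 9 arrays. Of the other marker lists, 2 of 5 adipocyte markers (LEP and CIDEC), 1 of 4 endothelial markers (VWF) and 3 of 4 leukocyte markers (CD68, CD14 and CD3E) were above the dim level, PTPRC was not, and 0 were called in either comparison. The mean of the adipocyte markers was 5.56 to 5.58 with DM, 5.61 to 5.82 with DMSO and 5.73 to 6.02 with CID. PLIN1, a lipid droplet coat protein below the dim level on average, had 1.04 against DM (adjusted p = 0.0929 from limma). PLIN1 had 0.62 against DMSO. FABP4, also below the dim level, had 0.53 against DM and 0.48 against DMSO, and CIDEC had 0.23 and 0.17. LEP and ADIPOQ went the other way, LEP with -0.24 and -0.50, and ADIPOQ, below the dim level, with -0.07 and -0.09. The part of cell composition in the values of the SNX, VPS and CHMP genes was not tested.

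**Figure D2:**
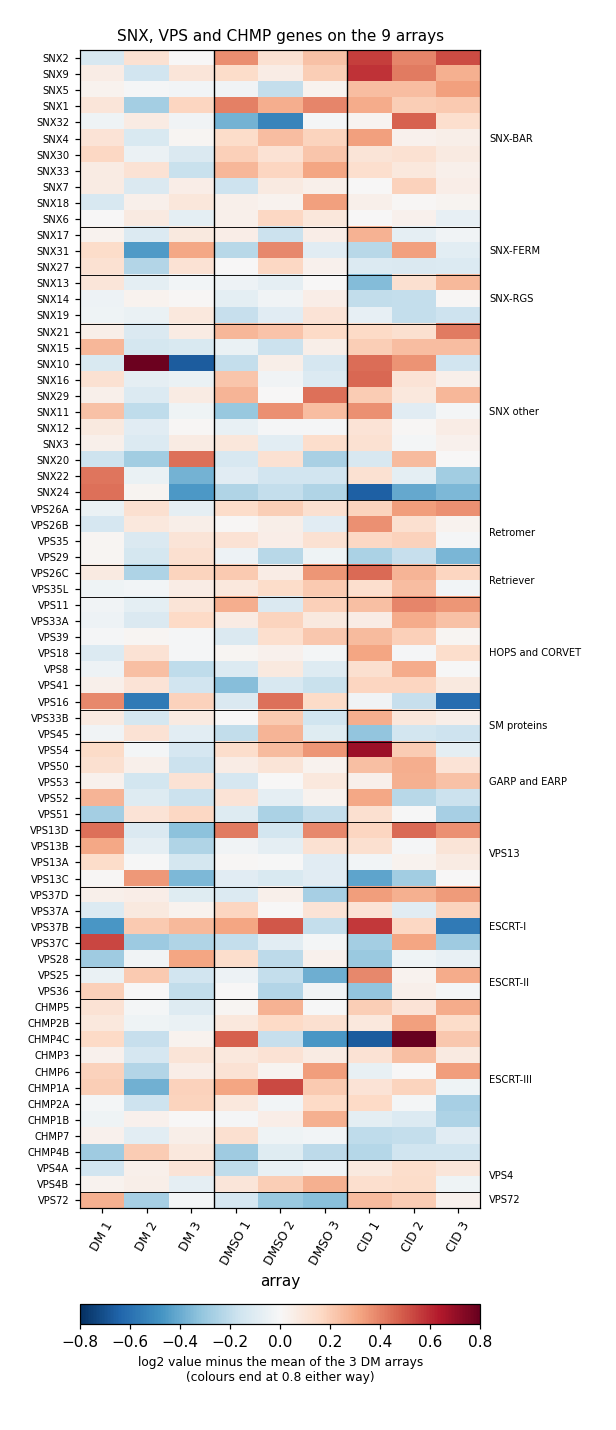
Log2 value of each of the 72 genes (rows, by complex or protein class) on each of the 9 arrays (columns), minus the mean of the 3 DM arrays of that gene, with colours ending at 0.8 in either direction. SNX2, SNX9, SNX5 and VPS37D have their 3 CID arrays above all others, and the strongest colours within a group belong to dim genes such as CHMP4C and SNX10.

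On 4 genes the 3 CID arrays all lay above the 6 DM and DMSO arrays, which is 5.56% of the 72 beside a background of 4.42% of all probe sets. They were SNX2, SNX5, SNX9 and VPS37D. On 2 genes, CHMP1B and CHMP7, the CID arrays all lay below the 6 others, which is 2.78% beside a background of 5.33%. Both shares were near or under those of the whole array.

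SNX2, SNX5 and SNX9 belong to the SNX-BAR class, whose curved BAR domain shapes endosomal membrane into tubules. SNX2 pairs with SNX5 or SNX6 in the coat that carries cargo from endosomes to the Golgi apparatus. Its log2 values were 13.17, 13.42 and 13.30 with DM, 13.67, 13.42 and 13.53 with DMSO, and 13.85, 13.69 and 13.82 with CID. All 3 CID arrays stood above the DMSO arrays, which overlapped the DM arrays at 13.42. The log2 fold change was 0.49 (SE 0.12, 95% interval 0.22 to 0.76) for CID against DM, or 1.40-fold, with an adjusted p of 0.0854 from limma with Benjamini-Hochberg adjustment, the smallest of the 72 genes in that comparison. It was 0.25 (SE 0.12, adjusted p = 0.376 from limma) for CID against DMSO and 0.24 (adjusted p = 0.746 from limma) for DMSO against DM. Over the alternatives the adjusted p for CID against DM ran from 0.00645 to 0.24. The values under 0.05 came with a trended and robust variance prior (0.00645) and with the dim probe sets left out (0.0430), and the fold change stayed under 1.5 in both.

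SNX9, which links membrane curvature to dynamin and actin in clathrin-mediated uptake at the plasma membrane, had log2 values of 13.21, 13 and 13.25 with DM, 13.30, 13.21 and 13.35 with DMSO, and 13.73, 13.57 and 13.44 with CID. The lowest CID array was 0.09 above the highest other array. Its log2 fold change was 0.43 (SE 0.12, 95% interval 0.15 to 0.70, adjusted p = 0.148 from limma) against DM, and 0.29 (95% interval 0.02 to 0.57, adjusted p = 0.293 from limma) against DMSO. With the trended and robust prior the adjusted p against DM was 0.0210. SNX5, a partner of SNX2 that binds cargo tails directly, had log2 values of 12.48, 12.44 and 12.43 with DM, 12.42, 12.26 and 12.48 with DMSO, and 12.70, 12.70 and 12.78 with CID. The DM and DMSO arrays overlapped and the CID arrays lay above both. Its log2 fold change was 0.28 (95% interval 0.04 to 0.52, adjusted p = 0.314 from limma) against DM and 0.34 (95% interval 0.10 to 0.58, adjusted p = 0.154 from limma) against DMSO, where the trended and robust prior gave 0.0335.

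**Figure D3:**
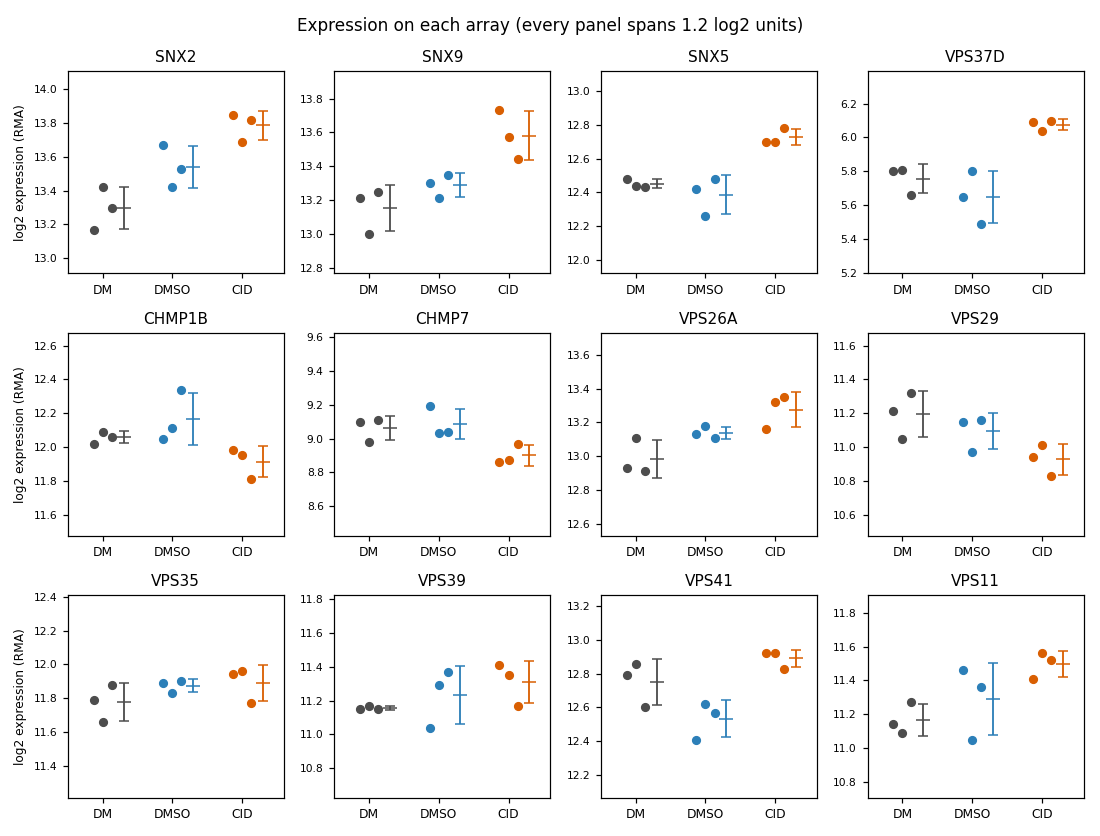
Log2 values (vertical axes, placed separately for each gene and of equal span) of selected genes on the 3 DM, 3 DMSO and 3 CID arrays, with a point for each array and, beside them, the group mean with its SD as a bar. For SNX2 the CID arrays lie between 13.69 and 13.85 and the DM arrays between 13.17 and 13.42, with the DMSO arrays between and overlapping DM.

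The remaining SNX-BAR genes did not share one pattern. SNX1, which can stand in for SNX2 in the same coat, had log2 values of 10.67, 10.30 and 10.74 with DM, 10.97, 10.86 and 10.96 with DMSO, and 10.87, 10.77 and 10.78 with CID. Both the DMSO and the CID arrays were above all DM arrays, and CID overlapped DMSO. SNX1 was the 1 gene of the 72 at an unadjusted p under 0.05 for DMSO against DM, with a log2 fold change of 0.36 (95% interval 0.07 to 0.65, adjusted p = 0.647 from limma), and against DMSO the value with CID was -0.12 (95% interval -0.42 to 0.17). SNX32, a close relative of SNX5 and SNX6, had 6.71, 6.81 and 6.72 with DM, 6.37, 6.22 and 6.74 with DMSO, and 6.77, 7.22 and 6.88 with CID. Its log2 fold change of 0.51 (95% interval 0.16 to 0.87, adjusted p = 0.143 from limma) against DMSO was the highest of the 72. Against DM it was 0.21, or 0.08 without the second CID array, and 2 of the DMSO arrays lay below all DM arrays. SNX6, the other partner of SNX2, had means of 13.91 ± 0.0751 (SD of 3 arrays) for DM, 14.01 ± 0.0603 for DMSO and 13.90 ± 0.0513 for CID. Over all 11 SNX-BAR genes, which include SNX4 and SNX7 of recycling and autophagy and the SNX9 relatives SNX18 and SNX33, 10 of 11 were above 0 for CID against DM with a median of 0.14, and 5 of 11 for CID against DMSO with a median of -0.05. For DMSO against DM the median of these 11 was 0.13.

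Of the other sorting nexins, SNX17 and SNX27 of the SNX-FERM class select integrins and receptors for return to the cell surface, SNX27 with retromer and SNX17 with retriever. SNX27 had log2 values of 12.92, 12.56 and 12.91 with DM, 12.80, 12.96 and 12.83 with DMSO, and 12.69, 12.68 and 12.69 with CID. The CID arrays lay below all DMSO arrays but above the lowest DM array, and the log2 fold changes were -0.11 (95% interval -0.39 to 0.17) against DM and -0.18 (95% interval -0.46 to 0.10) against DMSO. With 1 array left out, the value against DM ran from -0.23 (without the second DM array) to -0.05 (without the first). SNX17 had 0.06 and 0.08. The 3 SNX-RGS genes, SNX13, SNX14 and SNX19, whose proteins are anchored in the endoplasmic reticulum, had a median of -0.13 against DM and -0.08 against DMSO, and SNX19 had -0.14 (95% interval -0.40 to 0.12) against DM.

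Among the 11 further sorting nexins, which are mostly single PX domain proteins that bind phosphatidylinositol 3-phosphate on endosomes, 9 of 11 were above 0 against DM (median 0.09) and 7 of 11 against DMSO (median 0.05). SNX3, which works with retromer in the return of the Wnt carrier protein WLS, had log2 fold changes of 0.05 (95% interval -0.21 to 0.30) against DM and -0.0033 against DMSO. SNX24, a small PX domain protein, had log2 values of 9.83, 9.41 and 8.93 with DM, 9.15, 9.20 and 9.15 with DMSO, and 8.74, 8.98 and 9.03 with CID. It was the 1 gene at an unadjusted p under 0.05 that was lower with CID than with DM, at -0.47 (95% interval -0.90 to -0.04, adjusted p = 0.339 from limma). The DM arrays spread over 0.90, and the lowest of them lay among the CID arrays and below all DMSO arrays. Without the first DM array the log2 fold change was -0.25, and without the third it was -0.70 (adjusted p = 0.0958 from limma).

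Retromer, the trimer of VPS26, VPS29 and VPS35 that Rab7 brings to late endosomes, had 4 genes on the array, because VPS26 has the alternative forms VPS26A and VPS26B. VPS26A had log2 values of 12.93, 13.11 and 12.91 with DM, 13.13, 13.18 and 13.11 with DMSO, and 13.16, 13.32 and 13.35 with CID. All CID arrays were above all DM arrays and overlapped the DMSO arrays, and the log2 fold changes were 0.29 (95% interval 0.04 to 0.54, adjusted p = 0.303 from limma) against DM and 0.14 (95% interval -0.11 to 0.39) against DMSO. VPS29, the phosphatase-like subunit that binds the Rab7 regulator TBC1D5, lay on the other side. Its values were 11.21, 11.05 and 11.32 with DM, 11.15, 10.97 and 11.16 with DMSO, and 10.94, 11.01 and 10.83 with CID, so that CID was below all DM arrays and overlapped DMSO. The log2 fold changes of VPS29 were -0.27 (95% interval -0.53 to 0.0013, adjusted p = 0.399 from limma) and -0.17 (95% interval -0.43 to 0.10). VPS35, the scaffold, had 11.79, 11.66 and 11.88 with DM, 11.89, 11.83 and 11.90 with DMSO, and 11.94, 11.96 and 11.77 with CID. These overlapped throughout, with 0.11 (95% interval -0.14 to 0.37, and 0.06 without the second DM array) against DM and 0.02 (95% interval -0.24 to 0.27) against DMSO. VPS26B had 0.17 and 0.19. In retriever, the related complex that works with SNX17, VPS26C had 0.30 (95% interval -0.03 to 0.62, adjusted p = 0.442 from limma) against DM, or 0.17 without the second DM array, and 0.09 against DMSO, and VPS35L had 0.12 and -0.03.

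The 7 VPS genes of HOPS, which tethers late endosomes, and CORVET, which tethers early endosomes, had 6 of 7 values above 0 against both DM (median 0.15) and DMSO (median 0.14). VPS11, a core subunit of both complexes, had log2 values of 11.14, 11.09 and 11.27 with DM, 11.46, 11.05 and 11.36 with DMSO, and 11.41, 11.56 and 11.52 with CID. All CID arrays lay above all DM arrays, while the DMSO arrays spanned both, and the log2 fold change against DM was 0.33 (SE 0.13, 95% interval 0.04 to 0.62, adjusted p = 0.324 from limma). VPS41, which belongs to HOPS alone, had 12.79, 12.86 and 12.60 with DM, 12.41, 12.62 and 12.57 with DMSO, and 12.92, 12.92 and 12.83 with CID. Here CID stood above all DMSO arrays and overlapped DM, with 0.36 (95% interval 0.09 to 0.62, adjusted p = 0.169 from limma) against DMSO and 0.14 against DM. With the trended and robust prior its adjusted p against DMSO was 0.0392, at a fold change under 1.5. VPS39, the HOPS subunit whose yeast counterpart binds the yeast Rab7, had 0.15 (95% interval -0.12 to 0.43) against DM and 0.08 (95% interval -0.20 to 0.35) against DMSO. VPS18 and VPS33A of the shared core had 0.15 and 0.20 against DM, and VPS8 of CORVET had 0.14. VPS16, the last core subunit, was dim, and its intervals were wide, at -0.82 to 0.27 against DM and -0.98 to 0.11 against DMSO.

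The SM proteins VPS33B and VPS45 steer the SNARE proteins that fuse membranes. VPS33B had log2 fold changes of 0.14 against DM and 0.13 against DMSO, and VPS45 had -0.21 (95% interval -0.52 to 0.10) and -0.20 (95% interval -0.51 to 0.11). GARP and EARP tether vesicles that return from endosomes to the Golgi apparatus or to recycling endosomes, and 3 of their 5 genes were above 0 against DM (median 0.19) and 4 of 5 against DMSO (median 0.14). The EARP subunit VPS50 had 9.49, 9.40 and 9.19 with DM, 9.42, 9.46 and 9.39 with DMSO, and 9.60, 9.65 and 9.47 with CID. CID was above all DMSO arrays and overlapped DM at 9.47 to 9.49, with 0.21 (95% interval -0.05 to 0.48) against DM. The 4 VPS13 genes encode lipid transfer proteins at contacts between organelles. Their values for CID against DM ran from -0.23 for VPS13C to 0.33 for VPS13D, whose interval was -0.13 to 0.79 and whose value was 0.17 without the third DM array and 0.55 without the first, and against DMSO from -0.13 to 0.11.

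**Figure D4:**
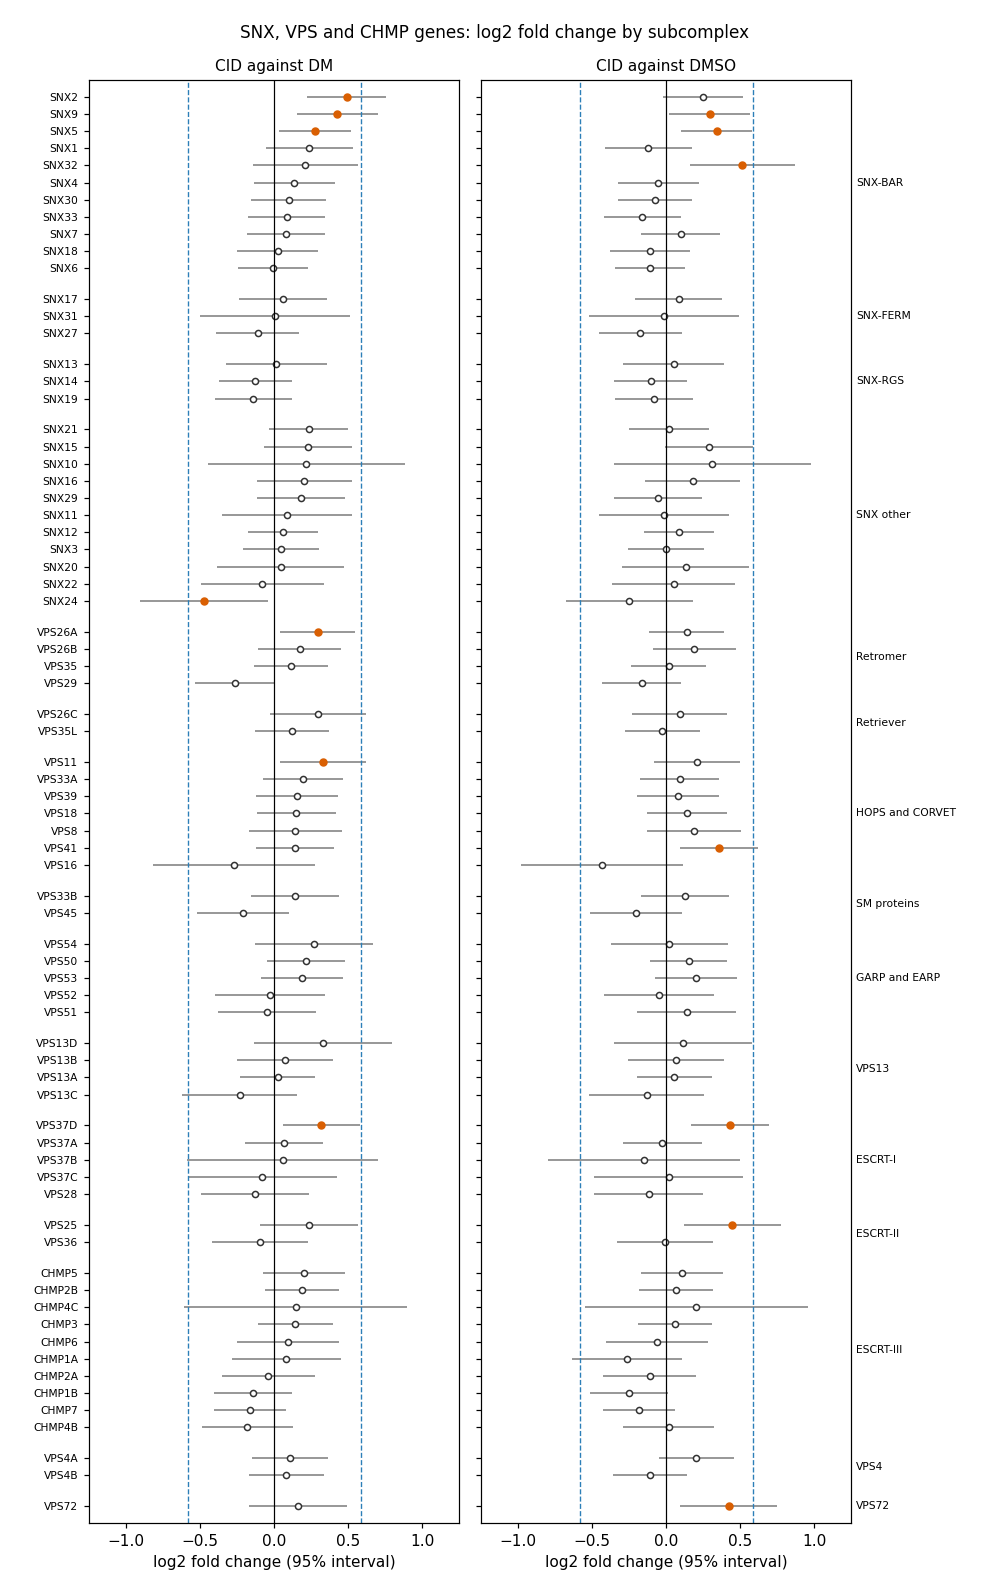
Log2 fold change with its 95% confidence interval (horizontal axis) of each of the 72 genes (rows, by complex or protein class) for CID against DM and CID against DMSO. Orange marks an unadjusted p under 0.05, which 7 genes had in each panel, and no gene passed after adjustment. The intervals of 60 genes in each panel lie within 1.5-fold in both directions.

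Inward budding of cargo starts with ESCRT-I and ESCRT-II. VPS37D, 1 of 4 alternative VPS37 subunits of ESCRT-I, had log2 values of 5.80, 5.81 and 5.66 with DM, 5.65, 5.80 and 5.49 with DMSO, and 6.09, 6.04 and 6.10 with CID. The DM and DMSO arrays overlapped, and the lowest CID array was 0.23 above the highest of them. The log2 fold changes were 0.32 (SE 0.12, 95% interval 0.06 to 0.58, adjusted p = 0.275 from limma) against DM and 0.43 (SE 0.12, 95% interval 0.17 to 0.69, adjusted p = 0.0908 from limma) against DMSO, the smallest adjusted p of the 72 in the second comparison. With the dim probe sets left out it was 0.0457 against DMSO. The level was not far above the dim level of 5.40. The other ESCRT-I genes VPS28, VPS37A, VPS37B and VPS37C had values from -0.13 to 0.07 against DM. VPS25 of ESCRT-II, the subunit that binds the ESCRT-III protein CHMP6, had 10.68, 10.94 and 10.58 with DM, 10.69, 10.54 and 10.34 with DMSO, and 11.12, 10.76 and 11.03 with CID. CID lay above all DMSO arrays and overlapped DM, with 0.45 (95% interval 0.12 to 0.78, adjusted p = 0.173 from limma) against DMSO and 0.24 (95% interval -0.09 to 0.57) against DM. VPS36, its partner that binds ubiquitin, had -0.10 and -0.01.

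ESCRT-III is the filament that closes the neck of the bud, and it is built from CHMP proteins. Of its 10 genes, 6 were above 0 against DM (median 0.09) and 5 against DMSO (median -0.02). In limma 0 of 10 reached an unadjusted p under 0.05 in either comparison, beside backgrounds of 12.6% and 15.2% of all probe sets. With 10 genes and these backgrounds, the count of 0 is not a result about ESCRT-III. CHMP1B, which can coat the outside of tubules, had log2 values of 12.02, 12.09 and 12.06 with DM, 12.05, 12.11 and 12.34 with DMSO, and 11.98, 11.95 and 11.81 with CID. The highest CID array was 0.04 below the lowest other array, and the log2 fold changes were -0.14 (95% interval -0.41 to 0.12) and -0.25 (95% interval -0.52 to 0.0087, adjusted p = 0.348 from limma). CHMP7, which starts ESCRT-III assembly at the nuclear envelope, had 9.10, 8.98 and 9.11 with DM, 9.19, 9.03 and 9.04 with DMSO, and 8.86, 8.87 and 8.97 with CID. CID was lower than all others by as little as 0.01, with -0.16 (95% interval -0.41 to 0.08) against DM and -0.19 (95% interval -0.43 to 0.06) against DMSO. CHMP4B, the main filament subunit, had -0.18 (95% interval -0.49 to 0.13) against DM and 0.02 against DMSO. CHMP2B, which helps bring VPS4 to the filament, had 0.19 (95% interval -0.06 to 0.44) against DM, CHMP3 had 0.14 and CHMP5 had 0.20. The VPS4 ATPases take the filament apart, and VPS4A had 0.11 (95% interval -0.15 to 0.36, and 0.03 without the first DM array) against DM and 0.20 (95% interval -0.05 to 0.46) against DMSO, while VPS4B had 0.08 and -0.11.

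VPS72 carries a VPS symbol but is a subunit of chromatin complexes that place the histone variant H2A.Z. Its log2 values were 9.65, 9.10 and 9.35 with DM, 9.23, 9.07 and 9.03 with DMSO, and 9.62, 9.57 and 9.40 with CID. Against DMSO, CID was higher by 0.42 (95% interval 0.09 to 0.75, adjusted p = 0.201 from limma), and against DM by 0.16 with overlapping arrays, which became 0.03 without the second DM array and 0.30 without the first. It accounts for 1 of the 7 genes at an unadjusted p under 0.05 in CID against DMSO.

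Of 49 partner genes listed by their role in the same machinery, 43 were measured, and 0 of 43 were called in any comparison by limma. The background of called probe sets was 1.35% for CID against DM and 2.41% for CID against DMSO. For CID against both averaged it was 2.44%, and for DMSO against DM 0.00466%. At such low backgrounds a count of 0 among 43 genes says little about them. At an unadjusted p under 0.05 limma gave 2 of 43 for CID against DM, beside a background of 12.6% of all probe sets. It gave 5 of 43 for CID against DMSO beside 15.2%, and 3 of 43 for DMSO against DM beside 6.98%. The median log2 fold change of the 43 was 0.02 against DM and 0.03 against DMSO. RAB7A, the gene of the GTPase that CID targets, had log2 values of 16.25, 16.12 and 16.23 with DM, 16.35, 16.20 and 16.28 with DMSO, and 16.35, 16.30 and 16.41 with CID. All CID arrays were above the DM arrays and overlapped the DMSO arrays, with 0.15 (95% interval -0.09 to 0.39, adjusted p = 0.612 from limma) against DM. TBC1D5, the retromer-bound GTPase activating protein for Rab7, had 0.34 (95% interval 0.08 to 0.61, adjusted p = 0.239 from limma) against DM and 0.23 against DMSO. COMMD10, of the CCC complex that works with retriever, had -0.38 (95% interval -0.63 to -0.13, adjusted p = 0.169 from limma) against DM and -0.07 against DMSO. VAC14, the scaffold of the kinase that makes phosphatidylinositol 3,5-bisphosphate, had 0.46 (95% interval 0.19 to 0.72, adjusted p = 0.0810 from limma) against DMSO and 0.26 against DM. Its DMSO arrays all lay below its DM arrays, with -0.20 for DMSO against DM. TBC1D5, COMMD10 and VAC14 were named after their values were seen. Medians against DM were -0.01 for the 7 class III phosphatidylinositol kinase and lipid partners, 0.02 for the 11 ESCRT-0 and accessory genes, 0.02 for the 11 CCC genes, 0.09 for the 6 WASH genes and 0.07 for the 8 HOPS and CORVET partners. WASHC1, WASHC2A, WASHC2C and CCZ1 have near-identical copies in the genome, so that their values are uncertain.

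The sequences upstream of these genes were read for motifs, since many genes of lysosomes and late endosomes carry an E-box bound by TFEB and its relatives in an extended form called CLEAR. RefSeq promoters (GRCh38.p14) matched 51 of the 72 genes, with 65 windows of the 250 bases before a listed start. The extended E-box TCACGTGA was in the windows of 2 of 51 genes (3.92%), VPS11 and VPS26C, beside 1.49% of 14250 genes of the array with a window and 1.99% of the 9925 of them above the dim level. The core E-box CACGTG, which the extended form contains, was in 5 of 51 (9.8%) beside 9.68% of the same array genes and 11% of those above the dim level. Both read the same on either strand. The motif CGGAAG, or CTTCCG on the other strand, as bound by ETS factors, was in 29 of 51 genes (56.9%) beside 26.0% of array genes with a window and 32.2% of those above the dim level. The 29 genes with CGGAAG had a median log2 fold change of 0.06 for CID against DM and the 22 genes without it had 0.14. A match is a description of these letters and not of binding. Shown here are the genes with the extended E-box and, for comparison, SNX9 and SNX5, whose CID arrays lay above all others and whose windows hold no E-box. The windows of SNX9 and SNX5 were picked to hold CGGAAG or CTTCCG, so its presence in them is no result. SNX2 and VPS37D, whose CID arrays also lay above all others, had no match or no window and are not shown. Each window is 5′ to 3′ on the gene's own strand and ends at the base before the start, with the searched motifs in capitals. They are VPS11 at chr11:119067568-119067817 on the plus strand, VPS26C at chr21:37267335-37267584 on the minus strand, SNX9 at chr6:157822996-157823245 on the plus strand, and SNX5 at chr20:17968795-17969044 on the minus strand. VPS11 and VPS26C each have 2 listed starts, and 1 window of each is shown.
VPS11: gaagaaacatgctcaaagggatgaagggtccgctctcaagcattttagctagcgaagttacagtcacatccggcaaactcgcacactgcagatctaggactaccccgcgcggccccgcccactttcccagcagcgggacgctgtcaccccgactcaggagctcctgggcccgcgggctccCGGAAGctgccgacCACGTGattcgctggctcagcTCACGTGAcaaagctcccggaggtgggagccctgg
VPS26C: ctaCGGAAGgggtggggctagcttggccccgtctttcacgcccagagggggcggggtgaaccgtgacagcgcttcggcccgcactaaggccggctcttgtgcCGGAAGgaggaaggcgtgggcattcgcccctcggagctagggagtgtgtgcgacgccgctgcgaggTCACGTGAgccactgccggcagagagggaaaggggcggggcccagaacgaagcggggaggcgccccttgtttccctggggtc
SNX9: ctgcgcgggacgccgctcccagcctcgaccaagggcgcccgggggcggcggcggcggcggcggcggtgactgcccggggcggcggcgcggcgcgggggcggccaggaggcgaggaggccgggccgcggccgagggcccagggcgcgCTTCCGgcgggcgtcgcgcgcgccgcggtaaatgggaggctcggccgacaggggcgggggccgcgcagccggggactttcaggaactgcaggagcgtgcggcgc
SNX5: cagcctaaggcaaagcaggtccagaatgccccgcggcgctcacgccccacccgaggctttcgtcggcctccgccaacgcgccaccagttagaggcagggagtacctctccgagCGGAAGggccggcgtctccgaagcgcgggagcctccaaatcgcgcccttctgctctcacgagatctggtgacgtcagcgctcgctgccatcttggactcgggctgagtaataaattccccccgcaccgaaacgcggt
In VPS11 the extended E-box began 35 bases before the start, with a further core E-box at 56 and CGGAAG at 70. In VPS26C the extended E-box began 82 bases before the start, with CGGAAG at 148 and 247. SNX9 had CTTCCG at 104 and SNX5 had CGGAAG at 137. VPS11 and VPS26C, the 2 genes with the extended E-box, had log2 fold changes of 0.33 and 0.30 against DM and 0.21 and 0.09 against DMSO, none of which passed the test. The 49 genes without it had medians of 0.0867 against DM and 0.0167 against DMSO. Both VPS11 and VPS26C were also named for the smallest unadjusted p from limma in their complex, and 2 genes settle nothing about the motif. The 5 genes with the core E-box were VPS11, VPS26C, VPS16, VPS36 and VPS37B. They had a median of 0.06 against DM with 3 of 5 above 0, and the 46 genes without the core E-box had a median of 0.10.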

How the data were processed

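The authors hybridized total RNA to Clariom S Human arrays and deposited 1 log2 value per probe set, summarised by RMA (background correction, equalizing of arrays, combining of probes) with Transcriptome Analysis Console. The version is not given in the sources used here. These steps could not be repeated. Groups came from the sample titles. Group means were fitted in limma 3.58.1 (R 4.3.3) on all 9 arrays with 6 residual degrees of freedom, over all 21448 probe sets, with 4 contrasts. Array number limits the precision. Gene names are those of the platform annotation and may be dated, and a gene is given by its probe set of highest mean. The genes, lists and tests were chosen with earlier results of these data known. Named genes were those with all CID arrays on 1 side of the 6 others, and core subunits fixed by role. The genes with the highest and lowest log2 fold change for CID against DM and for CID against DMSO were given too. Also named was the gene of each complex or class with the smallest unadjusted p from limma for CID against DM. The same was done for DMSO against DM, with 1 gene in each direction. Intervals and unadjusted p-values of genes named in these ways are those of selected genes. Further genes were named as examples of a list. Alternatives were other thresholds, variance prior, normalization, filter, arrays, test and replicate block. Probe set choice could change nothing, as each gene has 1. Promoters came from RefSeq (GRCh38.p14). Figures were drawn with matplotlib 3.10.9.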

Additional observations from a re-analysis of the deposited data

How the results depend on the processing

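With 3 arrays per group, small changes could not be settled, nor changes over 1.5-fold for the 12 genes in each CID comparison whose intervals reach that far. Apart from the 2 settings named below, 0 of 72 genes were called under each setting run for a comparison and without each of its arrays in turn. For CID against both averaged, the t-test and the fit on the compared groups alone were not run. When each DM or CID array was left out, 49 of 72 log2 fold changes for CID against DM kept their direction and 23 did not, the largest of these being 0.22 (SNX10), and 57 moved by over 1.5 times. Same-numbered arrays did not deviate together (correlations -0.0519 to 0.0684), so numbers were not taken as pairing; with the replicate block 0 of 72 were called, at smallest adjusted p-values from limma of 0.144 (CID against DM) and 0.125 (CID against DMSO). Added after seeing the data were 2 settings without the fold threshold. With a trended and robust prior the counts were 2 genes for CID against DM, 2 for CID against DMSO and 3 (SNX2, SNX9, SNX5) for CID against both averaged, which is 2.78%, 2.78% and 4.17% beside 3.54%, 5.18% and 5.58% of all probe sets. With the dim probe sets left out they were 1, 1 and 1, or 1.52% of 66 genes, beside 3.49%, 6.22% and 6.83%. The cause was not tested. Median centring moved the median to 0.02 (CID against DMSO) and to 0.075 (DMSO against DM, with 52 of 72 above 0 in place of 41). Without 1 array the median ran from 0.0308 (without DMSO array 2) to 0.0733 (without CID array 3) for CID against DMSO, and from -8e-04 (without DM array 2) to 0.0725 (without DM array 1) for DMSO against DM. Genes at an unadjusted p under 0.05 for CID against DM numbered 3 without CID array 2 and 4 without CID array 3, and for CID against DMSO 4 without CID array 1. For DMSO against DM, where 1 had been counted, they ranged from 0 (without DMSO array 1) to 4 (without DM array 1 or 3). They were 3 without DM array 2 or DMSO array 2, 5 with median centring and 5 with the trended prior. The share of all probe sets at this threshold was not counted under these settings. In the main fit it was 12.6% for CID against DM, 15.2% for CID against DMSO and 6.98% for DMSO against DM. These counts are therefore not a result about the 72 genes.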
